A study of Bos taurus with 10 samples.

Results

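The apoptosis regulators described here are 37 genes of the BCL2 family, the caspases, the inhibitors of apoptosis and the death receptor pathway, taken by symbol from the expression table of bovine oviductal organoids. Of these, 35 were among the 26,804 genes of the table, and BIK and TNFRSF10D, which were matched by no name there, were not analysed here. The organoids are hollow epithelial structures grown in a gel from cells of cow oviducts collected at an abattoir. All were raised at 37 °C, and for the last day of culture they either stayed at 37 °C (thermoneutral) or were held at 42 °C (heat stress, HS). Total RNA was sequenced from 5 replicates at each temperature, lettered A to E, each a pool of a pair of animals. By the study's methods, the same oviducts were used at both temperatures. Libraries are named by temperature and letter, for example 42C A. The comparison was made over 9 libraries, with 42C B left out. The study set 1 HS replicate aside without naming it. That this was 42C B is an inference from a clustering plot of the study that lacks it. The caption of the study's clustering figure for these organoids gives the HS samples as A to D, a range that includes B, so the inference is uncertain. Results that differ with all 10 libraries are therefore given as such. The text gives the values of 42C B beside those of the others where they bear on a result.

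Apoptosis is the orderly death of a cell by caspases, proteases that are made as inactive precursors. In the mitochondrial route, BH3-only proteins sense damage and either neutralise the anti-apoptotic BCL2 proteins or switch on BAX and BAK1, which open the outer mitochondrial membrane and let cytochrome c out to assemble the apoptosome with APAF1 and CASP9. In the receptor route, ligands such as the TNFSF10 product bind death receptors, whose adaptors FADD and TRADD recruit CASP8 and RIPK1, and inhibitors such as XIAP and CFLAR hold caspases back. Much of this control lies in protein binding, cleavage and location, which RNA levels do not show. In the oviduct, the epithelium lines the tube through which gametes and early embryos pass, and its height and secretion change over the oestrous cycle.

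Values are TPM, the number of transcripts scaled to a fixed library total, which correct for transcript length, so levels can be set side by side between genes. Each deposited column is a share of its library, it holds no read numbers, and no counting interval was computed from it. In whole organoids, fewer cells that express a gene and less RNA of it per cell cannot be told apart. Of 9 epithelial markers, 8 were expressed, and the 9 summed to 13,080 to 15,910 TPM at 37 °C and 7885 to 12,160 TPM at 42 °C, while OVGP1, the oviductal glycoprotein, stayed below 1 TPM in every library. The sum was mostly the keratins KRT7, KRT8, KRT18 and KRT19, which were lower on average at 42 °C, whereas EPCAM, CDH1 and PAX8 were higher in each of the 4 libraries compared at 42 °C than in any at 37 °C. FOXJ1, a marker of ciliated cells, ranged over 9.5 to 30 TPM at 37 °C and 7.94 to 16.2 TPM in those 4 libraries, with overlap. All 7 leukocyte markers and 5 of 6 fibroblast markers were below 1 TPM in every library, and 3 of the leukocyte markers were at 0 throughout. The endothelial markers summed to 10.5 to 17.1 TPM and the smooth muscle markers to 1.87 to 10.7 TPM over the 9 libraries.

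All 35 regulators reached 1 TPM in 4 or more of the 9 libraries and were tested among 12,149 genes with limma on log2(TPM + 1), a scale that understates the change of genes with low values. A gene is said to have risen or fallen where its adjusted p was below 0.05, and it is called higher or lower where the change was also 2-fold or more. Differences are 42 °C minus 37 °C. Among the regulators 3 were called higher (8.57%), namely XIAP, BCL2L11 and CASP2, against 15.8% of all genes tested, and 1 was called lower (2.86%), FADD, against 7.14%. At any size, 14 rose (40% against 45.1% of all genes) and 7 fell (20% against 18.1%). In 12 regulators every 42 °C library lay above every 37 °C library (34.3% against 36.6%), in 6 every one lay below (17.1% against 12.3%), and in 17 the groups overlapped. The shares at any size lay close to those of all genes, and a smaller share of the regulators than of all genes was called at 2-fold. What follows is therefore which regulators moved, in which direction, and in which libraries.

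The direction of small changes depended on how libraries were scaled. The median gene differed by 0.30 on the log2 scale as deposited, and the median regulator by 0.28. Dividing each library by the median ratio of its genes to their geometric means (median-ratio scaling) brought these medians to -0.01 and -0.06, so a difference of about 0.30 is the level against which each regulator stands. With this scaling 1 regulator was called higher (2.86% against 7.54% of genes) and 4 were called lower (11.4% against 11.8%), and at any size 10 rose (28.6% against 28.7%) and 10 fell (28.6% against 29.9%). Of the 21 regulators that changed, 14 kept their direction and an adjusted p below 0.05 under each of the 18 alternatives to the processing. Those that stayed higher were MCL1, BOK, BCL2L11, APAF1, CASP2, CASP8, XIAP and RIPK1, and those that stayed lower were BAX, BAK1, BAD, CYCS, AIFM1 and FADD. Library 42C A lay between the 37 °C libraries and the other 42 °C libraries in 14 of 35 regulators (40% against 33.1% of all genes), and without it 5 were called higher (14.3% against 18.8%) and 2 lower (5.71% against 9.13%).

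**Figure D1:**
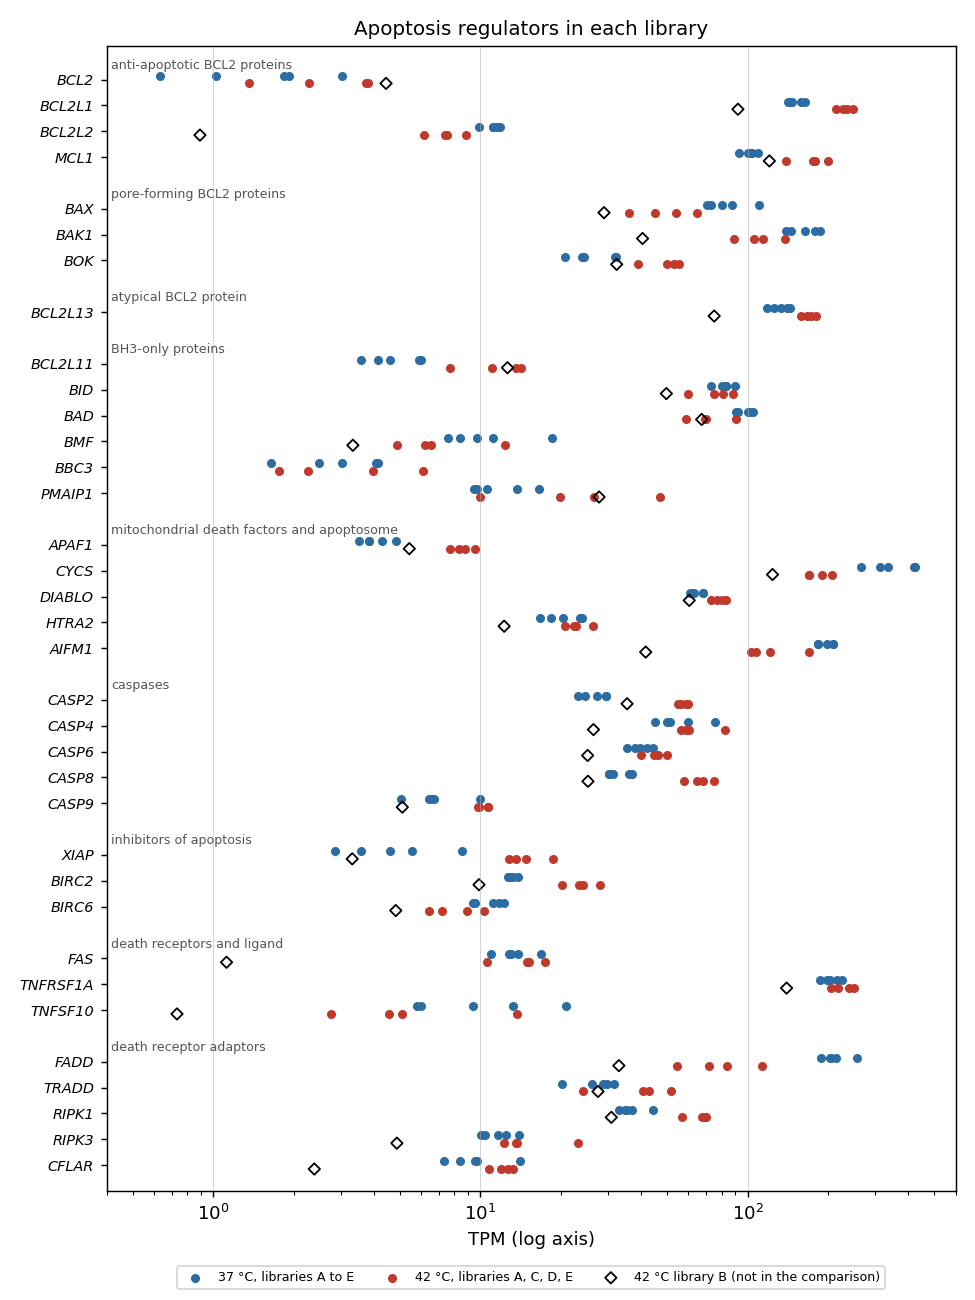
TPM of the 35 apoptosis regulators (rows, grouped by role) in each library, on a log axis. Points are libraries by temperature, with 42C B marked apart, and BBC3, listed at 0 in 42C B, is not drawn there. FADD, CYCS, AIFM1, BAX and BAK1 lie to the left at 42 °C and XIAP, CASP2, CASP8, APAF1 and BCL2L11 to the right, without overlap between the 9 libraries compared.

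Among the anti-apoptotic BCL2 proteins, which bind and restrain their death-promoting relatives, the abundant members BCL2L1 and MCL1 rose and the scarcer BCL2L2 fell. BCL2L1, which encodes BCL-XL, stood at 147, 141, 164, 143 and 159 TPM in 37C A to E and at 215, 248, 236 and 227 TPM in 42C A, C, D and E. All 4 libraries at 42 °C were above all 5 at 37 °C, with 42C A the lowest of them. Its mean went from 151 ± 10.04 TPM (SD, n = 5) to 232 ± 14.01 TPM (SD, n = 4) (log2 difference 0.62, SE 0.09, adjusted p = 0.000149). MCL1 encodes a short-lived guardian of the same family whose protein is lost soon after its synthesis stops. It stood at 93.1, 100, 103.5, 109 and 102 TPM in 37C A to E and at 139.6, 199, 179 and 175 TPM in 42C A, C, D and E. Again no libraries overlapped, and the mean went from 102 ± 5.91 TPM (SD, n = 5) to 173 ± 24.9 TPM (SD, n = 4) (log2 difference 0.75, SE 0.11, adjusted p = 0.000174). With median-ratio scaling both rises remained at about the size by which they exceeded the median gene (0.27 for BCL2L1 with adjusted p = 0.0219, and 0.41 for MCL1 with adjusted p = 0.0047). BCL2L1 stood below every other library in 42C B (92.1 TPM), and with all 10 libraries its rise did not pass the test (log2 difference 0.35, adjusted p = 0.241). BCL2L2, or BCL-W, ranged over 9.89 to 11.8 TPM at 37 °C and 6.16 to 8.84 TPM at 42 °C. The groups did not overlap and the level fell (log2 difference -0.52, SE 0.13, adjusted p = 0.00544), although with all 10 libraries, where 42C B held 0.893 TPM, the adjusted p was 0.0553. BCL2 itself, the founding member, was scarce, at 0.633 to 3.03 TPM at 37 °C and 1.36 to 3.81 TPM at 42 °C. The groups overlapped and the difference did not pass the test (log2 difference 0.51, SE 0.30, adjusted p = 0.156), but without 42C A, at 1.36 TPM the lowest of the 42 °C libraries, it did (log2 difference 0.72, adjusted p = 0.0467). The median difference of the 4 genes was 0.56, beside 0.30 for all genes.

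The pore-forming members moved apart. BAX and BAK1, the main executioners at the mitochondrial membrane, fell, and BOK, a relative that can open the membrane without the usual activators, rose. BAK1, the most abundant of them, stood at 186, 145, 178, 139 and 164 TPM in 37C A to E and at 138, 114, 88.8 and 106 TPM in 42C A, C, D and E. The 42 °C libraries were all below the 37 °C libraries, narrowly so for 42C A. The mean went from 162.5 ± 20.5 TPM (SD, n = 5) to 112 ± 20.6 TPM (SD, n = 4) (log2 difference -0.54, SE 0.14, adjusted p = 0.00484). BAX stood at 110.3, 87.6, 70.8, 73.02 and 80.1 TPM in 37C A to E and at 64.7, 44.9, 36.1 and 53.9 TPM in 42C A, C, D and E. Here too 42C A was the nearest to the 37 °C libraries and 42C D the farthest. The mean of BAX went from 84.3 ± 15.9 TPM (SD, n = 5) to 49.9 ± 12.2 TPM (SD, n = 4) (log2 difference -0.76, SE 0.18, adjusted p = 0.00295), and with median-ratio scaling it was called lower (log2 difference -1.10, adjusted p = 0.000703). BOK stood at 24.01, 24.4, 31.8, 20.7 and 32.2 TPM in 37C A to E and at 38.95, 53.2, 55.2 and 50.01 TPM in 42C A, C, D and E. All 42 °C libraries exceeded all 37 °C libraries, and the mean went from 26.6 ± 5.11 TPM (SD, n = 5) to 49.3 ± 7.24 TPM (SD, n = 4) (log2 difference 0.87, SE 0.16, adjusted p = 0.000593), and the rise held with median-ratio scaling (log2 difference 0.54, adjusted p = 0.0113). In library 42C B, left out of these tests, BAX and BAK1 stood at 29.03 and 40.5 TPM, below every other library, and BOK at 32.4 TPM, above every 37 °C library. The BCL2 relative BCL2L13, an outer membrane protein of mitochondria that in mammals also serves as a receptor for their removal by autophagy, stood at 133, 125, 144, 141 and 119 TPM in 37C A to E and at 166, 173, 180.2 and 159 TPM in 42C A, C, D and E. It rose without overlap from 132 ± 10.5 TPM (SD, n = 5) to 169.7 ± 9.101 TPM (SD, n = 4) (log2 difference 0.36, SE 0.09, adjusted p = 0.00495), a difference close to that of the median gene, and with median-ratio scaling none was left (0.02, adjusted p = 0.892). With all 10 libraries it did not pass the test either (adjusted p = 0.657).

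The balance between restraining and pore-forming transcripts can be read as a ratio within each library, which dividing the library by a factor does not alter. The sums themselves, when set side by side between libraries, do depend on scaling. The summed TPM of BCL2, BCL2L1, BCL2L2 and MCL1 was 265 ± 11.7 TPM (SD, n = 5) in thermoneutral and 415 ± 38.8 TPM (SD, n = 4) in HS organoids. That of BAX, BAK1 and BOK was 273 ± 32.5 TPM (SD, n = 5) in thermoneutral and 211 ± 25.3 TPM (SD, n = 4) in HS organoids. The ratio of the sums was 0.787, 0.9895, 0.99, 1.15 and 0.996 in 37C A to E and 1.51, 2.16, 2.35 and 1.97 in 42C A, C, D and E. Every 42 °C library exceeded every 37 °C library, with means of 0.982 ± 0.127 (SD, n = 5) and 1.999 ± 0.363 (SD, n = 4). Library 42C B, in which most regulators were low, had a ratio of 2.14, inside the range of the other HS libraries. Both of its sums were below those of every 37 °C library, at 218 TPM for the restraining and 102 TPM for the pore-forming transcripts. The higher restraining sum of the other HS libraries was thus not seen in 42C B. The ratio of BCL2L1 to BAX, chosen after their values were seen, was 1.33, 1.61, 2.32, 1.96 and 1.98 in 37C A to E and 3.33, 5.53, 6.54 and 4.22 in 42C A, C, D and E. Library 42C B had 3.17, again above all 37 °C libraries. The ratios are descriptions and were not tested.

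**Figure D2:**
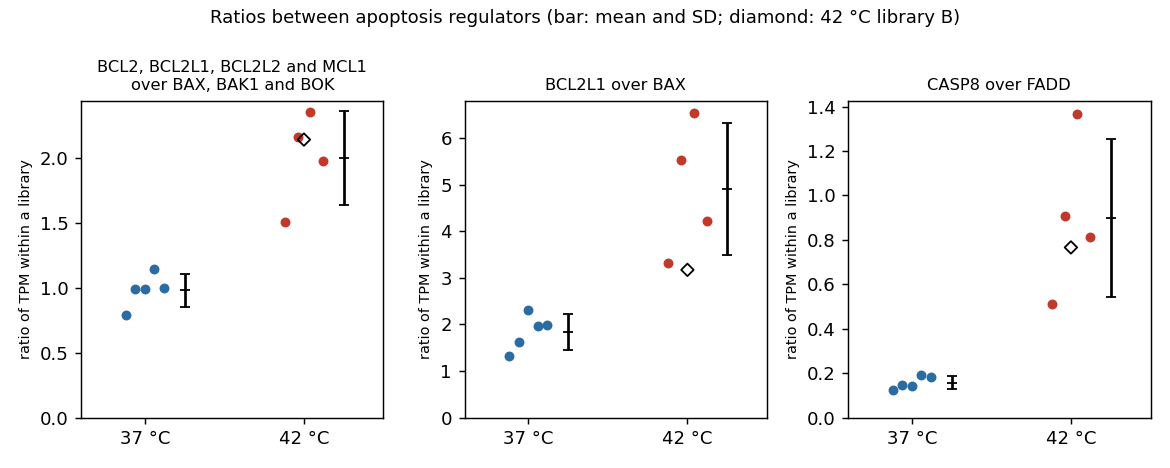
Ratios of TPM within each library at 37 °C and 42 °C for the anti-apoptotic over the pore-forming sum, BCL2L1 over BAX and CASP8 over FADD, with each point a library, the diamond 42C B and the bars the mean and SD without it. The points at 42 °C all lie above those at 37 °C, at 1.51 to 2.35 against 0.787 to 1.15 for the sums.

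The BH3-only proteins, the sensors of the mitochondrial route, showed no common direction, with a median difference of -0.01. BCL2L11 and PMAIP1 rose, BAD fell, and BID, BMF and BBC3 did not pass the test. BCL2L11 encodes BIM, which can bind all anti-apoptotic BCL2 proteins and is made when growth factors are withdrawn. It stood at 4.59, 5.92, 3.58, 5.98 and 4.15 TPM in 37C A to E and at 7.72, 14.2, 11.02 and 13.6 TPM in 42C A, C, D and E. No libraries overlapped, and 42C A, the lowest at 42 °C, was still above the highest at 37 °C. Its mean went from 4.84 ± 1.07 TPM (SD, n = 5) to 11.6 ± 2.96 TPM (SD, n = 4) and it was called higher (log2 difference 1.10, SE 0.20, adjusted p = 0.000691), and 42C B held 12.6 TPM. The rise passed the test under each alternative, but its size fell below 2-fold with median-ratio scaling (0.80), with quantile normalization (0.74), with a pseudocount of 5 (0.75) and, narrowly, without 42C C (0.998). PMAIP1, or NOXA, whose protein binds MCL1 and marks it for destruction, stood at 9.71, 10.6, 9.45, 13.7 and 16.6 TPM in 37C A to E and at 9.97, 19.8, 26.7 and 47.2 TPM in 42C A, C, D and E. Library 42C A lay among the 37 °C libraries and 42C E stood far above, so that the groups overlapped. The mean went from 12 ± 3.05 TPM (SD, n = 5) to 25.9 ± 15.8 TPM (SD, n = 4) and the rise passed narrowly (log2 difference 0.88, SE 0.35, adjusted p = 0.0424). Without 42C A it was called higher (log2 difference 1.25, adjusted p = 0.00152), and without 37C E it was called as well, exactly at the limit of 2-fold, whereas without 42C E the difference was 0.54 and, as without any of 37C A to D, 42C C or 42C D, no longer passed (0.54 to 1.25 over all libraries left out in turn). It also failed with median-ratio scaling (0.56, adjusted p = 0.162). The ratio of MCL1 to PMAIP1 within libraries, also chosen after the values were seen, overlapped between temperatures, at 6.19 to 10.96 at 37 °C and 3.71 to 14.01 at 42 °C, with the extremes of HS in 42C E and 42C A.

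BAD, which binds BCL-XL unless survival kinases keep it phosphorylated, was the most abundant of the BH3-only genes at 37 °C, whereas at 42 °C BID had the higher mean (76.04 against 72.1 TPM). It stood at 105, 90.6, 99.96, 91.9 and 102 TPM in 37C A to E and at 58.8, 69.7, 69.2 and 90.7 TPM in 42C A, C, D and E. The groups touched, since 42C E just exceeded 37C B. The mean went from 97.8 ± 6.23 TPM (SD, n = 5) to 72.1 ± 13.4 TPM (SD, n = 4) (log2 difference -0.45, SE 0.12, adjusted p = 0.00747), and with median-ratio scaling the fall was -0.79 (adjusted p = 0.000262). BID, which CASP8 cuts to carry the receptor signal to mitochondria, ranged over 73.3 to 89.95 TPM at 37 °C and 59.9 to 88.2 TPM at 42 °C with overlap. Its difference of -0.12 did not pass the test (adjusted p = 0.419), but with median-ratio scaling it was lower (-0.46, adjusted p = 0.00492). BMF, a sensor tied to the cytoskeleton and to cell detachment, ranged over 7.56 to 18.5 TPM at 37 °C and 4.86 to 12.4 TPM at 42 °C. Library 42C A, at 12.4 TPM, was the only one at 42 °C above the lowest of the 37 °C libraries. The difference was -0.51 (adjusted p = 0.126) and passed the test without 42C A (-0.76, adjusted p = 0.0175) and with median-ratio scaling (-0.82, adjusted p = 0.023). BBC3, or PUMA, a target of p53, was scarce at 1.64 to 4.13 TPM at 37 °C and 1.76 to 6.13 TPM at 42 °C and was listed at 0 in 42C B. Its difference of 0.10 did not pass the test (adjusted p = 0.789) and turned negative with median-ratio scaling (-0.16), with quantile normalization (-0.18) and with all 10 libraries (-0.32).

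Of the factors that act once the mitochondrial membrane is open, CYCS and AIFM1 fell and APAF1 and DIABLO rose. CYCS encodes cytochrome c, an electron carrier of respiration that activates APAF1 when it escapes, and it was the most abundant regulator in 37C A to E. It stood at 422, 335, 421, 266 and 313 TPM in 37C A to E and at 190.5, 207, 169 and 170.4 TPM in 42C A, C, D and E. Every 42 °C library was below every 37 °C library, and the 42 °C values were close together while those at 37 °C spread between 37C D and 37C A. The mean went from 351 ± 68.7 TPM (SD, n = 5) to 184 ± 18.2 TPM (SD, n = 4) (log2 difference -0.91, SE 0.14, adjusted p = 0.000264), just short of 2-fold. CYCS was called lower with median-ratio scaling (-1.25), with all 10 libraries (-1.02) and without 37C D (-1.004). Mammalian genomes carry processed copies of CYCS that can share its reads, so its level is uncertain to that extent. AIFM1 encodes a mitochondrial flavoprotein that is needed for respiratory complexes and can move to the nucleus in death without caspases. It stood at 208, 198, 208, 183 and 184 TPM in 37C A to E and at 170.5, 108, 122 and 103 TPM in 42C A, C, D and E. The groups did not overlap, although 42C A lay close to 37C D and 37C E. AIFM1 went from 196 ± 12.5 TPM (SD, n = 5) to 126 ± 30.9 TPM (SD, n = 4) (log2 difference -0.66, SE 0.14, adjusted p = 0.00154) and was called lower with median-ratio scaling (-1.01, adjusted p = 0.000377).

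APAF1, the scaffold of the apoptosome, went the other way. It stood at 4.303, 3.82, 3.53, 4.84 and 3.84 TPM in 37C A to E and at 9.59, 7.67, 8.35 and 8.79 TPM in 42C A, C, D and E. All HS libraries exceeded all thermoneutral libraries, 42C A here being the highest. The mean went from 4.07 ± 0.516 TPM (SD, n = 5) to 8.601 ± 0.801 TPM (SD, n = 4) a ratio of 2.12, but on the log2(TPM + 1) scale the rise was under the limit for a call (log2 difference 0.92, SE 0.14, adjusted p = 0.000223), and it held with median-ratio scaling (0.63, adjusted p = 0.00236). With a pseudocount of 0.1 it was called higher (1.07). DIABLO and HTRA2 leave mitochondria to displace inhibitors of apoptosis from caspases. DIABLO ranged over 60.9 to 68.3 TPM at 37 °C and 73.2 to 83.3 TPM at 42 °C without overlap and rose by a small step (log2 difference 0.28, SE 0.09, adjusted p = 0.0175), which turned to -0.06 with median-ratio scaling and did not pass with the replicate letter as a block (0.27, adjusted p = 0.0676) or without 42C E. The rise of DIABLO did not pass with all 10 libraries either (log2 difference 0.21, adjusted p = 0.201). HTRA2 ranged over 16.7 to 23.9 TPM at 37 °C and 20.7 to 26.5 TPM at 42 °C with overlap, and its difference of 0.16 (adjusted p = 0.309) became -0.16 with median-ratio scaling and -0.19 with quantile normalization. The summed level of the group went from 637 ± 79.5 to 420.2 ± 34.6 TPM, most of it CYCS and AIFM1, while the median difference of its 5 genes was 0.16.

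Among the 5 caspases the initiators CASP2, CASP8 and CASP9 rose and none fell. CASP2, an initiator that is activated on a platform with PIDD1 after damage to DNA or extra centrosomes, stood at 29.6, 27.4, 29.4, 24.7 and 23.3 TPM in 37C A to E and at 58.9, 54.7, 59.7 and 56.2 TPM in 42C A, C, D and E. The groups were far apart and each was narrow. The mean went from 26.9 ± 2.83 TPM (SD, n = 5) to 57.4 ± 2.31 TPM (SD, n = 4) and CASP2 was called higher (log2 difference 1.07, SE 0.11, adjusted p = 2.86e-05), and 42C B held 35.4 TPM, between the groups. Its rise passed the test under each alternative but was under 2-fold with median-ratio scaling (0.73), quantile normalization (0.81), a pseudocount of 5 (0.97) and all 10 libraries (0.93). CASP8, the initiator of the receptor route, stood at 31.4, 30.3, 30.2, 35.99 and 36.98 TPM in 37C A to E and at 57.8, 64.8, 74.7 and 68.2 TPM in 42C A, C, D and E. Again the groups did not overlap, with 42C A the lowest at 42 °C. CASP8 went from 32.99 ± 3.25 TPM (SD, n = 5) to 66.4 ± 7 TPM (SD, n = 4) (log2 difference 0.99, SE 0.11, adjusted p = 4.91e-05). The ratio of the means was 2.01, but on the log2(TPM + 1) scale the difference was just short of the limit for a call, which it passed with a pseudocount of 0.1 (1.01) and without 37C D (1.02), 37C E (1.03) or 42C A (1.05). In 42C B it stood at 25.3 TPM, below every 37 °C library. CASP9, the initiator of the apoptosome, ranged over 5.05 to 10 TPM at 37 °C and 9.79 to 10.7 TPM at 42 °C. Only 37C D reached the range at 42 °C. CASP9 rose (log2 difference 0.53, SE 0.17, adjusted p = 0.018), but the rise did not pass with median-ratio scaling (0.22, adjusted p = 0.246), with all 10 libraries (adjusted p = 0.225) or with the replicate letter as a block (0.44, adjusted p = 0.0636).

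CASP4, an inflammatory caspase that in humans senses bacterial lipopolysaccharide inside the cell, had the highest mean of the 5 at 37 °C, and at 42 °C CASP8 was slightly higher (66.4 against 64.7 TPM). It stood at 45.2, 49.98, 51.4, 75.8 and 59.6 TPM in 37C A to E and at 56.5, 60.4, 82.7 and 59 TPM in 42C A, C, D and E. The groups overlapped, and D was the highest letter at both temperatures. The mean went from 56.4 ± 12.03 TPM (SD, n = 5) to 64.7 ± 12.1 TPM (SD, n = 4) (log2 difference 0.20, SE 0.16, adjusted p = 0.3), and the sign turned with median-ratio scaling (-0.14). CASP6, an executioner that cuts lamins, ranged over 35.4 to 44.2 TPM at 37 °C and 40 to 49.98 TPM at 42 °C and did not pass the test (log2 difference 0.18, SE 0.11, adjusted p = 0.169), with -0.16 after median-ratio scaling. The median difference of the caspases was 0.53 beside 0.30 for all genes, and 0.22 beside -0.01 with median-ratio scaling.

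Inhibitors of apoptosis bind caspases or tag death complexes with ubiquitin. XIAP, the most direct inhibitor of caspases in this family, had the largest rise of the regulators, as deposited and with median-ratio scaling (1.16). It stood at 2.86, 3.56, 4.58, 8.56 and 5.57 TPM in 37C A to E and at 12.8, 14.9, 18.7 and 13.6 TPM in 42C A, C, D and E. The 37 °C libraries differed among themselves, with 37C D well above 37C A, and yet every 42 °C library exceeded them all. Its mean went from 5.03 ± 2.22 TPM (SD, n = 5) to 14.97 ± 2.62 TPM (SD, n = 4) and it was called higher (log2 difference 1.47, SE 0.24, adjusted p = 0.000366). XIAP was the only regulator called higher under each of the 18 alternatives, with differences between 1.01 and 1.65. In 42C B, however, it stood at 3.32 TPM, inside the 37 °C range. BIRC2, a ubiquitin ligase of the TNF receptor complex, stood at 12.8, 13.2, 13.8, 13.1 and 12.7 TPM in 37C A to E and at 20.1, 24.2, 28.1 and 23.4 TPM in 42C A, C, D and E. The 37 °C libraries were almost equal and the 42 °C libraries all higher. It rose from 13.1 ± 0.447 TPM (SD, n = 5) to 23.97 ± 3.29 TPM (SD, n = 4) (log2 difference 0.81, SE 0.12, adjusted p = 0.000187), a rise that held with median-ratio scaling (0.49, adjusted p = 0.00393) and did not pass with all 10 libraries (adjusted p = 0.0641) (42C B held 9.89 TPM). BIRC6, a very large ubiquitin-conjugating member that also restrains autophagy, ranged over 9.402 to 12.3 TPM at 37 °C and 6.41 to 10.3 TPM at 42 °C with overlap. Its difference of -0.37 did not pass (adjusted p = 0.059), but did with median-ratio scaling (-0.68, adjusted p = 0.00306) and without 42C A (-0.48, adjusted p = 0.0134).

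**Figure D3:**
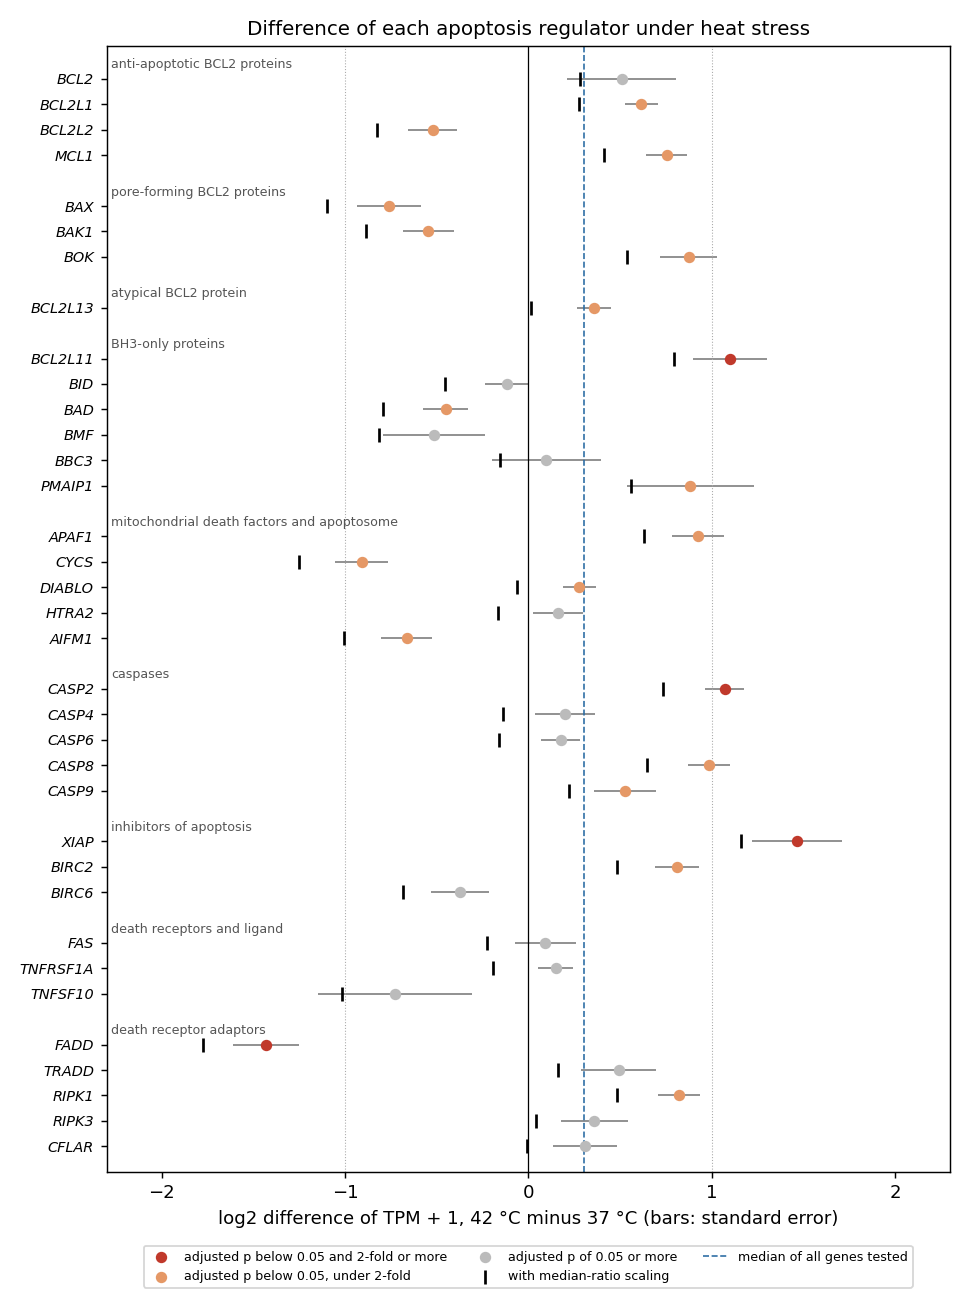
Log2 difference of TPM + 1 at 42 °C minus 37 °C for the 35 apoptosis regulators, grouped by role, with bars for the standard error and ticks for the value with median-ratio scaling. XIAP (1.47), BCL2L11 (1.10) and CASP2 (1.07) lie beyond 2-fold on the right and FADD (-1.43) on the left, and the dashed line marks the median of all genes tested (0.30).

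The death receptors TNFRSF1A and FAS and the ligand TNFSF10, those of the regulators that were measured, showed no change that passed the test. Of 7 other death receptors and ligands tested, which are not among the regulators, 4 rose and 1 fell (45.1% and 18.1% of all genes). TNFRSF1A, the broadly expressed receptor of tumour necrosis factor, stood at 203, 216, 198, 187 and 225 TPM in 37C A to E and at 206, 239, 218 and 251 TPM in 42C A, C, D and E. The groups overlapped, and the mean went from 206 ± 14.9 TPM (SD, n = 5) to 228 ± 20.4 TPM (SD, n = 4) (log2 difference 0.15, SE 0.10, adjusted p = 0.186), with -0.19 after median-ratio scaling. FAS ranged over 10.98 to 16.9 TPM at 37 °C and 10.6 to 17.5 TPM at 42 °C and its difference of 0.09 (adjusted p = 0.643) turned to -0.23 with median-ratio scaling. In 42C B it held 1.12 TPM. TNFSF10 encodes TRAIL, a ligand of death receptors that epithelia make under interferon. It stood at 5.77, 6.02, 9.405, 20.9 and 13.2 TPM in 37C A to E and at 13.8, 5.099, 4.55 and 2.75 TPM in 42C A, C, D and E. The spread within each temperature was wide, led by 37C D and 42C A, and the difference did not pass (log2 difference -0.73, SE 0.42, adjusted p = 0.148). Without 42C A, TNFSF10 was called lower (-1.12, adjusted p = 0.0178), as it was with quantile normalization (-1.06).

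Downstream of the receptors the adaptors divided, with a fall of FADD and a rise of RIPK1. FADD joins the receptors to CASP8. It stood at 256, 206, 214, 188 and 204 TPM in 37C A to E and at 113, 71.5, 54.7 and 83.8 TPM in 42C A, C, D and E. The lowest 37 °C library was above the highest 42 °C library, 42C A, by a wide margin, and 42C B held 33 TPM. The mean went from 214 ± 25.8 TPM (SD, n = 5) to 80.8 ± 24.8 TPM (SD, n = 4) and FADD was called lower (log2 difference -1.43, SE 0.18, adjusted p = 7.81e-05). The call held under each of the 18 alternatives, with differences between -1.77 and -1.26.

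RIPK1, the kinase that directs the TNF receptor complex towards survival, apoptosis or necroptosis, stood at 34.7, 32.99, 36.9, 35.5 and 44.4 TPM in 37C A to E and at 56.9, 69.7, 67.3 and 69.4 TPM in 42C A, C, D and E. No libraries overlapped. It rose from 36.9 ± 4.44 TPM (SD, n = 5) to 65.8 ± 6.02 TPM (SD, n = 4) (log2 difference 0.82, SE 0.11, adjusted p = 0.000134), and held with median-ratio scaling (0.48, adjusted p = 0.00249). RIPK3, its partner in necroptosis, ranged over 10.02 to 13.98 TPM at 37 °C and 12.3 to 23.2 TPM at 42 °C. Library 42C A, at 23.2 TPM, stood apart from the other 3 at 42 °C, which reached up to 13.8 TPM, and the difference did not pass (log2 difference 0.36, SE 0.18, adjusted p = 0.107). TRADD, the adaptor of the TNF receptor, ranged over 20.2 to 31.7 TPM at 37 °C and 24.1 to 51.9 TPM at 42 °C. Here 42C A lay within the 37 °C range and the other 3 above it, and the difference of 0.49 did not pass (adjusted p = 0.0531) but did without 42C A (0.71, adjusted p = 0.00151). CFLAR, which resembles CASP8 without its protease activity and competes with it for FADD, ranged over 7.31 to 14.1 TPM at 37 °C and 10.7 to 13.2 TPM at 42 °C. Its difference of 0.31 (adjusted p = 0.14) passed only without 37C D (0.44) and was -0.01 with median-ratio scaling. The opposite moves of CASP8 and FADD show within each library, in a ratio chosen after the values were seen, of 0.122, 0.147, 0.141, 0.192 and 0.181 in 37C A to E and 0.5101, 0.907, 1.36 and 0.814 in 42C A, C, D and E. Library 42C B had 0.766, so that each library at 42 °C was above each at 37 °C, although CASP8 itself was low there.

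Libraries were also set side by side by replicate letter. Among A, C, D and E the same letter was highest at both temperatures in 13 of 35 regulators (37.1% against 29.1% of all genes tested) and lowest at both in 9 (25.7% against 32.6%). Letter D was highest at both temperatures for CASP4, for example, and also for XIAP. Library 42C B was below every 37 °C library in 25 of the 35 (71.4% against 52.0% of all genes) and above every one in 7 (20% against 29.4%). The summed share of the regulators in the library was 0.212% to 0.237% at 37 °C, 0.213% to 0.221% in the 4 other HS libraries and 0.118% in 42C B. In 42C B the epithelial markers summed to 4638 TPM and the endothelial markers to 4.88 TPM. The smooth muscle markers summed to 16.3 TPM there, most of it CNN1 (12.9 TPM). Whether the makeup of that library plays a part in its low values was not tested. The same holds for the lower keratin levels at 42 °C beside the falls reported above, while EPCAM, CDH1 and PAX8 were higher at 42 °C. FOXJ1 overlapped between temperatures and reached 30 TPM at 37 °C but only 16.2 TPM in the HS libraries compared.

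**Figure D4:**
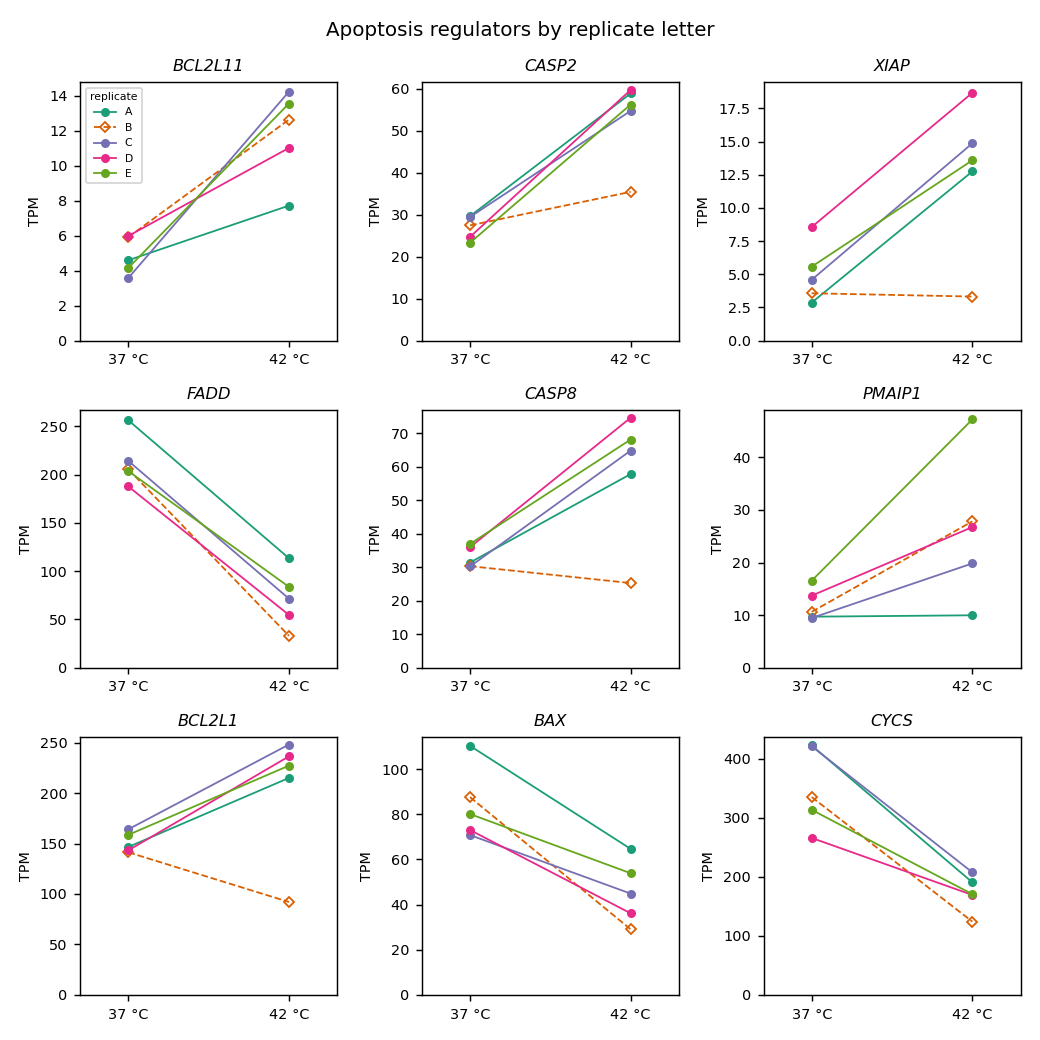
TPM (linear axes) of 9 apoptosis regulators at 37 °C and 42 °C, with points for libraries and a line joining those of the same replicate letter, dashed for letter B, whose 42 °C library was left out of the tests. FADD, BAX and CYCS go down in every letter, and XIAP goes up in A, C, D and E but is nearly level in B (3.56 and 3.32 TPM).

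Beyond the regulators above, 89 further genes of the apoptosis pathway were listed, 81 were in the table and 74 were tested. Of these 9 were called higher (12.2% against 15.8% of all genes) and 3 lower (4.05% against 7.14%), at any size 25 rose (33.8% against 45.1%) and 13 fell (17.6% against 18.1%), and their median difference was 0.00 beside 0.30 for all genes. The largest rise was that of BNIP2, a partner of BCL2 first found by its binding, which went from 5.29 ± 1.201 TPM (SD, n = 5) to 24.96 ± 7.44 TPM (SD, n = 4) (log2 difference 2.02, SE 0.22, adjusted p = 4.09e-05). API5, an inhibitor of apoptosis that works in the nucleus, went from 42.1 ± 6.54 TPM (SD, n = 5) to 106 ± 26.2 TPM (SD, n = 4) (log2 difference 1.28, SE 0.19, adjusted p = 0.000162). CYLD and OTULIN, which strip ubiquitin chains from the TNF receptor complex, were called higher at 1.196 (SE 0.13, adjusted p = 3.9e-05) and 1.04 (SE 0.14, adjusted p = 9.57e-05). PEA15, a death effector domain protein that can bind FADD and CASP8, rose by 1.03 on the log2 scale (adjusted p = 0.00025) and BCAP31, a membrane protein of the endoplasmic reticulum that CASP8 cuts, by 1.01 (adjusted p = 8.06e-05). TNFSF15, a ligand of the TNF family, rose by 1.37 (adjusted p = 0.00343), with 42C A at 25.2 TPM above the other HS libraries. BIRC3, a close relative and genomic neighbour of BIRC2, rose by 1.02 (adjusted p = 0.00184) and the death receptor TNFRSF21 by 1.12 (adjusted p = 0.00173). With the replicate letter as a block both were under 2-fold, at 0.97 and 0.98. With all 10 libraries TNFRSF21, at 16.8 TPM in 42C B, did not pass (log2 difference 0.78, adjusted p = 0.0888). CYLD (0.97), OTULIN (0.97), PEA15 (0.86), BCAP31 (0.97) and BIRC3 (0.96) still passed the test with all 10 libraries but were under 2-fold.

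The deepest fall was that of EDAR, the receptor of ectodysplasin, which has a death domain. It stood at 20.2, 18.4, 17.3, 21.4 and 25.4 TPM in 37C A to E and at 12.97, 1.14, 1.57 and 2.76 TPM in 42C A, C, D and E. Library 42C A lay between the 37 °C libraries and the other HS libraries, which were all at or below 2.76 TPM (log2 difference -2.37, SE 0.44, adjusted p = 0.000741). BNIP3, a mitochondrial receptor for autophagy that is induced by low oxygen, went from 396 ± 135 TPM (SD, n = 5) to 163.5 ± 53.5 TPM (SD, n = 4) (log2 difference -1.24, SE 0.30, adjusted p = 0.00396), and 37C E, at 182 TPM, lay among the HS libraries. ENDOG, a nuclease of mitochondria that can cut DNA in dying cells, went from 24.96 ± 2.85 TPM (SD, n = 5) to 11.6 ± 4.101 TPM (SD, n = 4) (log2 difference -1.09, SE 0.20, adjusted p = 0.000594) without overlap. PIDD1, the platform protein of CASP2, was scarce and fell from 3.4 ± 0.421 TPM (SD, n = 5) to 1.73 ± 1.06 TPM (SD, n = 4) (log2 difference -0.77, SE 0.26, adjusted p = 0.0202). The groups overlapped, since 42C A, at 3.05 TPM, lay within the 37 °C range of 2.96 to 4.03 TPM, while 42C D held 0.472 TPM. The numbers of calls among these genes moved with scaling as those of all genes did, to 2 higher and 7 lower with median-ratio scaling (7.54% and 11.8% of all genes) and 4 higher and 8 lower with quantile normalization. Over all 12,149 genes, quantile normalization left 965 called higher and 1283 lower. Without 42C C or 42C E, 5 of the other apoptosis genes were called higher, beside 1734 of 11,968 and 1728 of 11,950 genes. Without 42C A, 5 were called lower, beside 1094 of 11,977 genes (9.13%).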

How the data were processed

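Total RNA of bovine oviductal organoids was measured in 10 libraries, 5 at 37 °C and 5 at 42 °C, of which 9 were compared (5 against 4). The authors mapped reads to ARS-UCD1.2 and deposited TPM per gene, per the study's methods from CLC Genomics Workbench with TMM normalization. Bowtie2 2.2.2, bcl2fastq and DESeq2 are listed too in the submitters' processing notes, without the steps they served. The deposited TPM of each library sum to the same total and hold no read numbers, and read totals of the study were not used here. The study's count model could not be used on these values. Genes that reached 1 TPM in 4 or more of the 9 libraries were put on the log2(TPM + 1) scale and tested with limma 3.58.1 in R 4.3.3 (lmFit, eBayes with trend, two-sided), with Benjamini-Hochberg adjustment over all 12,149 genes. The procedure was also run on simulated data in which each gene varied independently. Those data held no pairing by letter, no deviating library and no shift of the median gene, so that run cannot speak to these features. P-values of this fit are set against the spread between replicates of pooled animals within a temperature, and the pairing by letter is not used in it.

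Members and lists were chosen with earlier results of these data known, and thresholds are those the study used on its own counts. Each regulator was to be named, with full statistics for the called ones and for the most abundant of each role over the 9 libraries, and other apoptosis genes when called. PIDD1 was added for its role, after its values were seen, and some genes of the list of other apoptosis genes are not reported here. Letters pair the samples because the same oviducts were used at both temperatures. The deviations of same-letter libraries from their group means correlated at 0.13 (A), 0.24 (B), 0.37 (C), 0.27 (D) and 0.21 (E), each the highest for its letter. Alternatives were pseudocounts of 0.1 and 5, no filter, a mean of 5 TPM, median-ratio scaling, quantile normalization, no trend, all 10 libraries, the block, and leaving out each library.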

Additional observations from a re-analysis of the deposited data

Results flagged for a closer look

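The value of the highest or lowest library in each of 70 groups of 4 or 5 libraries (35 regulators at 2 temperatures) was set against the others of its group, and 2 stood apart by Dixon's criterion, where chance gives about 1 in 20 groups. CASP4 stood at 82.7 TPM in 42C D, with the other 3 HS libraries between 56.6 and 60.4 TPM, and 37C D was likewise the highest at 37 °C. RIPK3 stood at 23.2 TPM in 42C A, with the others between 12.3 and 13.8 TPM, and 37C A was also the highest at 37 °C. Neither gene passed the test between temperatures.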

How the results depend on the processing

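Of the log2 differences of regulators under the alternatives, 585 kept their direction and their side of the threshold, 14 passed it anew, 8 no longer passed and 21 changed sign. The changes of sign were in regulators whose difference had not passed the test, except DIABLO, and the cause was not tested. With median-ratio scaling the values were -0.16 for BBC3, -0.061 for DIABLO, -0.16 for HTRA2, -0.14 for CASP4, -0.16 for CASP6, -0.23 for FAS, -0.19 for TNFRSF1A and -0.0060 for CFLAR. With quantile normalization they were -0.18 for BBC3, -0.19 for HTRA2, -0.021 for CASP4, -0.086 for CASP6, -0.29 for FAS and -0.047 for CFLAR. With all 10 libraries they were -0.32 for BBC3, -0.0067 for HTRA2, -0.047 for CASP4, -0.48 for FAS and -0.082 for CFLAR. Leaving out 1 library moved BBC3 between -0.15 and 0.30, the sign turning without 37C D (-0.05) or 42C A (-0.15).

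Regulators called higher numbered 5 with a pseudocount of 0.1, 1 with a pseudocount of 5, 1 with median-ratio scaling, 1 with quantile normalization, and 2 to 5 when 1 library was left out. Those called lower numbered 4 with median-ratio scaling, 2 with quantile normalization, 2 with all 10 libraries, and 1 to 2 without 1 library. Other apoptosis genes called higher numbered 4 with a pseudocount of 5, 2 with median-ratio scaling, 4 with quantile normalization, 3 with all 10 libraries and 5 to 10 without 1 library, and those called lower 7 with median-ratio scaling, 8 with quantile normalization and 2 to 5 without 1 library. The replicate block left 3 regulators called higher and 1 lower, with 7 and 3 of the other apoptosis genes, BIRC3 and TNFRSF21 being lost and no other call of these genes changed. Over all genes tested, the numbers called higher and lower were 1915 and 867, against 915 and 1437 with median-ratio scaling and 965 and 1283 with quantile normalization. They were 2367 and 1050 with a pseudocount of 0.1, and 884 and 487 with a pseudocount of 5. With all 10 libraries they were 1645 and 1094, and with the block 1848 and 869. With 1 library left out, 1682 to 2256 genes were called higher and 768 to 1094 lower. Over these settings 11,950 to 12,267 genes were tested. Each median of a gene group was set against the SD of that group's median difference over the 4 HS libraries compared. Of these medians, 131 moved by less than that SD and 31 by as much or more. TPM holds no reads per gene, so no counting error is given for scarce genes such as BCL2 and BBC3.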

Other observations

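Among the other apoptosis genes, those named here were chosen after their values were seen. Of 17 genes of death receptor signalling, 7 rose and 3 fell, beside 45.1% and 18.1% of all genes tested, and 7 and 5 did so with median-ratio scaling, beside 28.7% and 29.9%.  TRAF3, an adaptor that limits the alternative NF-kB route, went from 7.96 ± 0.468 TPM (SD, n = 5) to 15.6 ± 1.75 TPM (SD, n = 4) (log2 difference 0.89, SE 0.12, adjusted p = 0.000138), and DAXX, a binding partner of FAS and a histone chaperone, from 34.1 ± 2.97 TPM (SD, n = 5) to 60.2 ± 1.62 TPM (SD, n = 4) (log2 difference 0.81, SE 0.10, adjusted p = 6.64e-05). Neither overlapped between temperatures. RNF31, the catalytic subunit of the enzyme whose linear ubiquitin chains OTULIN removes, fell from 20.5 ± 2.04 TPM (SD, n = 5) to 13.9 ± 3.57 TPM (SD, n = 4) (log2 difference -0.56, SE 0.16, adjusted p = 0.0117), while OTULIN was among the genes called higher.

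Of 15 genes of execution and of the mitochondrial pore, 2 rose and 4 fell (45.1% and 18.1% of all genes), and none rose and 7 fell with median-ratio scaling (28.7% and 29.9% of all genes). VDAC2, a channel of the outer mitochondrial membrane that holds BAK1, stood at 668.5, 629.7, 729, 685 and 540.0 TPM in 37C A to E and at 466, 386, 414 and 418 TPM in 42C A, C, D and E. Every HS library was below every thermoneutral library (log2 difference -0.62, SE 0.11, adjusted p = 0.000399), and VDAC1 fell as well (log2 difference -0.40, SE 0.09, adjusted p = 0.00217), while VDAC3 did not pass the test (log2 difference -0.18, SE 0.09, adjusted p = 0.101). Of 17 kinases and stress inputs, 7 rose and 2 fell, against the same 45.1% and 18.1%, which became 2 and 5 with median-ratio scaling, against 28.7% and 29.9%. MAP3K5, the kinase ASK1 that is activated by oxidation, went from 11.8 ± 1.59 TPM (SD, n = 5) to 21.8 ± 2.904 TPM (SD, n = 4) (log2 difference 0.84, SE 0.14, adjusted p = 0.000341), and did not pass with all 10 libraries (adjusted p = 0.0578). DDIT3, or CHOP, a factor induced by stress of the endoplasmic reticulum, fell from 10.8 ± 3.79 TPM (SD, n = 5) to 5.92 ± 2.04 TPM (SD, n = 4) (log2 difference -0.75, SE 0.28, adjusted p = 0.0335), with 42C A the lowest library at 3.49 TPM and 37C C, at 5.57 TPM, among the HS libraries. Without 42C A its fall did not pass (log2 difference -0.56, adjusted p = 0.0855).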
